A study of Mus musculus with 32 samples.

Results

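The genes described here bind, move or sense zinc and iron, and they were followed through the response of cartilage cells to IL-1β and through deletion of Ldha, Nampt or Nfkbiz. They are the metallothionein genes Mt1 and Mt2, the zinc importers Slc39a8 and Slc39a14, the zinc exporter Slc30a1, the zinc sensor Mtf1, the metalloreductase gene Steap4, the transferrin receptor gene Tfrc, the ferritin heavy chain gene Fth1 and the iron exporter gene Slc40a1. They were chosen by symbol with earlier results of these data known. Each of the 10 symbols matched 1 of the 41388 Ensembl genes counted in every library. All 10 passed the filter on low counts in every comparison.

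RNA was sequenced from primary chondrocytes of C57BL/6 mice, the cells that make cartilage, in 16 conditions with 2 libraries apiece, 32 in total. Those of wild type received no virus and were left untreated or were given for 24 h FX11, a small-molecule inhibitor of lactate dehydrogenase A, IL-1β, an inflammatory cytokine (10 ng/mL in the study's methods), or both. Chondrocytes of 3 lines, LDHA flox, NAMPT flox and NFKBIZ flox, in which Cre recombinase can remove Ldha, Nampt or Nfkbiz, were infected for 24 h with an adenovirus that carries GFP or Cre and were then kept for a further 24 h with or without IL-1β. Every floxed library, controls included, therefore carries both the floxed allele and a virus, and no wild-type library carries either. Cre and the loss of its target cannot be told apart within a line. Per the methods the cells were digested from sterna and ribs of newborn mice without regard to sex, and the labels name them sternal. The labels do not say whether the 2 libraries of a condition came from separate animals or cultures, so p-values measure the spread between these libraries, which may be technical. Sample titles number the libraries in 2 styles, taken here as 2 library sets. Wild-type, LDHA flox and NAMPT flox conditions have 1 library in each set (the first value of each pair below is set 1), and all 8 NFKBIZ flox libraries lie in set 2.

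Metallothioneins are small cysteine-rich proteins that hold zinc and copper, and their genes are switched on through MTF1, a zinc-sensing transcription factor that binds metal response elements in promoters. The ZIP proteins encoded by Slc39a8 and Slc39a14 carry zinc, and also manganese and iron, into the cytosol, and in cartilage ZIP8 and MTF1 are known for their link to matrix-degrading enzymes in osteoarthritis. Iron enters bound to transferrin through the receptor encoded by Tfrc, is reduced by STEAP enzymes, is stored in ferritin and leaves through ferroportin, the product of Slc40a1, and inflammation is known to raise ferritin and metallothionein in many tissues.

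Mt2 (ENSMUSG00000031762, GRCm38 chr8:94172618-94173567) and Mt1 (ENSMUSG00000031765, chr8:94179089-94180325) are neighbours on the same strand, with 5521 bases between them. Their promoters are shown because the pair parted with Cre in NFKBIZ flox, and that of Steap4 (ENSMUSG00000012428, chr5:7960472-7982213) because it had the largest response of the 10 genes. RefSeq windows of 300 bases on GRCm38.p6, 250 before and 50 after the annotated start, were on hand for 8 of the 10 genes and not for Slc39a14 or Slc40a1. Capitals mark the metal response element core (TGCACNC or TGCGCNC, either strand, overlapping matches counted once) in Mt1 (chr8:94178839-94179138) and Mt2 (chr8:94172368-94172667), and the NF-κB consensus of 10 bases, either strand, in Steap4 (chr5:7960222-7960521). Each window is on the plus strand and reads 5′ to 3′.
Mt1: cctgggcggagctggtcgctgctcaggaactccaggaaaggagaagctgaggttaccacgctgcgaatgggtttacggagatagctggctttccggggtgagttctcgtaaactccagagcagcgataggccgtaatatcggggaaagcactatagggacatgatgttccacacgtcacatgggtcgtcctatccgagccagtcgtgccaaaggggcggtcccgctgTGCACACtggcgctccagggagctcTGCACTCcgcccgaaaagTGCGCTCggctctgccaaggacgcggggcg
Mt2: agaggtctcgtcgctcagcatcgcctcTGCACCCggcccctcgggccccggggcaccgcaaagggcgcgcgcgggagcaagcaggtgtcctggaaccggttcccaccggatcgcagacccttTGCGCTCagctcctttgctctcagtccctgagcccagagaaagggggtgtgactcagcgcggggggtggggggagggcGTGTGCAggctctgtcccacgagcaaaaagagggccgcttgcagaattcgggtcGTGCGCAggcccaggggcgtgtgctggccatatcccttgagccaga
Steap4: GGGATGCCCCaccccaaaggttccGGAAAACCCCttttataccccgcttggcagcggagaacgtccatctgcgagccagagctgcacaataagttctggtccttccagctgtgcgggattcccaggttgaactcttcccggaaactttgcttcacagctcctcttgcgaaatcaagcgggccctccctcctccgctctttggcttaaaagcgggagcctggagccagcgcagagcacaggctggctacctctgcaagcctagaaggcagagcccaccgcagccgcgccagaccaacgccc

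The Mt1 window held 3 metal response element cores, starting 23 bases before and 2 and 20 bases after the annotated start, and the Mt2 window held 4, starting 223, 128 and 50 bases before and 4 bases after it. Of 32851 promoter windows of this length, 25.7% held at least 1 such core, 1.31% at least 3 and 0.295% at least 4. Among the other members, Slc30a1 had 2 cores and Tfrc and Slc39a8 had 1 each in 1 of their windows. The NF-κB consensus lay in the Steap4 window at 250 and 226 bases before the start and in no window of another member, against 8.46% of all windows with at least 1 match and 0.521% with at least 2. These matches describe letters and not binding.

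Library totals ran from 15830658 to 39959888 counts. Reads of the deleted gene fell with Cre as the labels say: Ldha from between 869 and 1557 CPM (counts scaled by library total) with GFP virus to between 72.9 and 118 CPM in LDHA flox, Nampt from between 54.6 and 68.4 CPM to between 4.63 and 6.86 CPM in NAMPT flox, and Nfkbiz under IL-1β from 229 and 235 CPM to 29.5 and 32.3 CPM in NFKBIZ flox. Without IL-1β Nfkbiz was low with GFP virus (16.1 and 17.0 CPM) and stood at 8.28 and 9.65 CPM with Cre. CPM here are normalized across the 32 libraries by the TMM method. The 8 chondrocyte markers, led by Col2a1 and Acan, summed to between 13054 and 84679 CPM, so the labelled cell type had its defining genes in every library. The 5 fibroblast markers summed to between 483 and 745 CPM in NFKBIZ flox libraries and to between 1660 and 4055 CPM in LDHA flox and NAMPT flox libraries, and the part of this difference in the line comparisons below was not tested. The 7 macrophage markers summed to at most 64.6 CPM in floxed libraries and up to 246 CPM in wild type, and erythroid markers to at most 5.43 CPM in floxed libraries and up to 43.8 CPM in wild type. Skeletal muscle markers summed to at most 103 CPM in floxed libraries and up to 216 CPM in wild type. Endothelial markers reached at most 3.83 CPM in floxed libraries and 8.49 CPM in wild type. In set 2 of wild type the library labelled IL-1b held 0.784 CPM of Mmp3 and 0.635 CPM of Saa3, which IL-1β raised to at least 149 CPM and 176 CPM in every floxed library given it, and the library labelled FX11 held 2016 and 4312 CPM. Both are written below as the library labelled so.

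To ask which of the 10 genes IL-1β changed, the 12 libraries given GFP virus were compared, 6 without and 6 with IL-1β, with line and library set as covariates. Here and below a gene is called at an adjusted p of 0.05 or less from edgeR's quasi-likelihood test, adjusted by Benjamini-Hochberg over all genes tested. IL-1β raised 8 of the 10 genes and lowered none, and Slc30a1 and Slc40a1 were not called. In this comparison 56.2% of the 14283 genes tested were called, so that a call by itself is common. The median log2 fold change was 1.70 over the 10 genes and -0.01 over all genes tested. Because the 10 genes were chosen with earlier results of these data known, this contrast with all genes is descriptive only.

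The metallothionein genes, whose products store zinc, rose together. Mt1 stood at 282, 389 and 1004 CPM (lowest, median and highest of 6 libraries) without and 1092, 1632 and 4440 CPM under IL-1β, a log2 fold change of 2.09 (SE 0.05, edgeR adjusted p = 5.24e-15). Mt2 stood at 220, 275 and 682 CPM without and 1476, 2045 and 4330 CPM under IL-1β, a log2 fold change of 2.78 (SE 0.05, adjusted p = 1.69e-16). For both genes every library with IL-1β was above every library without, and the highest values on either side were those of NFKBIZ flox.

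The zinc importers also rose, Slc39a8 from a very low level. Slc39a8 (ENSMUSG00000053897, chr3:135825279-135888572) encodes ZIP8 and stood at 2.94, 3.92 and 4.50 CPM without IL-1β and at 45.8, 71.7 and 196 CPM with it, a log2 fold change of 4.57 (SE 0.20, edgeR adjusted p = 6.63e-12). Slc39a14 (ENSMUSG00000022094, chr14:70303469-70351425) encodes ZIP14, which inflammation is known to raise in liver, and stood at 103, 109 and 173 CPM without and 245, 271 and 420 CPM under IL-1β. Its log2 fold change was 1.31 (SE 0.04, adjusted p = 2.83e-14), and the arms did not overlap for either importer.

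The exporter and the sensor of zinc moved little. Slc30a1 (ENSMUSG00000037434, chr1:191906767-191913247), which encodes the plasma membrane exporter ZnT1 and is itself a target of MTF1, stood at 22.4, 24.0 and 26.9 CPM without IL-1β and at 22.4, 23.2 and 30.8 CPM with it. The arms overlapped, and the log2 fold change was 0.07 (SE 0.06, edgeR adjusted p = 0.319). Mtf1 (ENSMUSG00000028890, chr4:124802104-124849800) stood at 40.4, 43.1 and 47.0 CPM without and 48.5, 50.1 and 60.03 CPM under IL-1β, a log2 fold change of 0.27 (SE 0.05, adjusted p = 3.73e-04) with no overlap of the arms. Exons of Slc30a1 and Mtf1 overlap a gene on the opposite strand over 468 and 721 bases, and whether counting used the strand is not stated, so reads of these overlaps cannot be assigned with certainty.

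Among the reductase, ferritin, transferrin receptor and iron exporter genes, Steap4 and Fth1 rose furthest. Steap4, whose product reduces iron and copper at the membrane, stood at 0.757, 1.44 and 2.58 CPM without IL-1β and at 232, 257 and 746 CPM with it, a log2 fold change of 7.82 (SE 0.27, edgeR adjusted p = 3.55e-13). Fth1 (ENSMUSG00000024661, chr19:9982703-9985092), the ferroxidase subunit of ferritin, stood at 1026, 1588 and 2065 CPM without and 7820, 11591 and 15597 CPM under IL-1β. That is a log2 fold change of 2.94 (SE 0.05, adjusted p = 3.21e-17), and neither gene's arms overlapped.

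Tfrc rose slightly and Slc40a1 was not called. Tfrc (ENSMUSG00000022797, chr16:32608920-32632794) stood at 103, 107 and 134 CPM without IL-1β and at 138, 144 and 154 CPM with it, a log2 fold change of 0.38 (SE 0.05, edgeR adjusted p = 1e-05). Slc40a1 (ENSMUSG00000025993, chr1:45908068-45926523) stood at 1.77, 2.87 and 3.63 CPM without and 2.02, 2.41 and 2.78 CPM under IL-1β, a log2 fold change of -0.21 (SE 0.17, adjusted p = 0.302). The 32 libraries held 3053 Slc40a1 counts in all, the fewest of the 10 genes, and its values with IL-1β lay within the range of those without. Over the same 12 libraries the chondrocyte markers summed to between 63761 and 81957 CPM without and between 23975 and 28617 CPM with IL-1β, and the macrophage markers to between 13.6 and 25.0 CPM and between 30.9 and 64.6 CPM. The skeletal muscle markers summed to between 74.4 and 103 CPM without and between 11.2 and 42.1 CPM with IL-1β. In bulk RNA fewer cells of a type and less RNA per cell cannot be told apart.

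**Figure D1:**
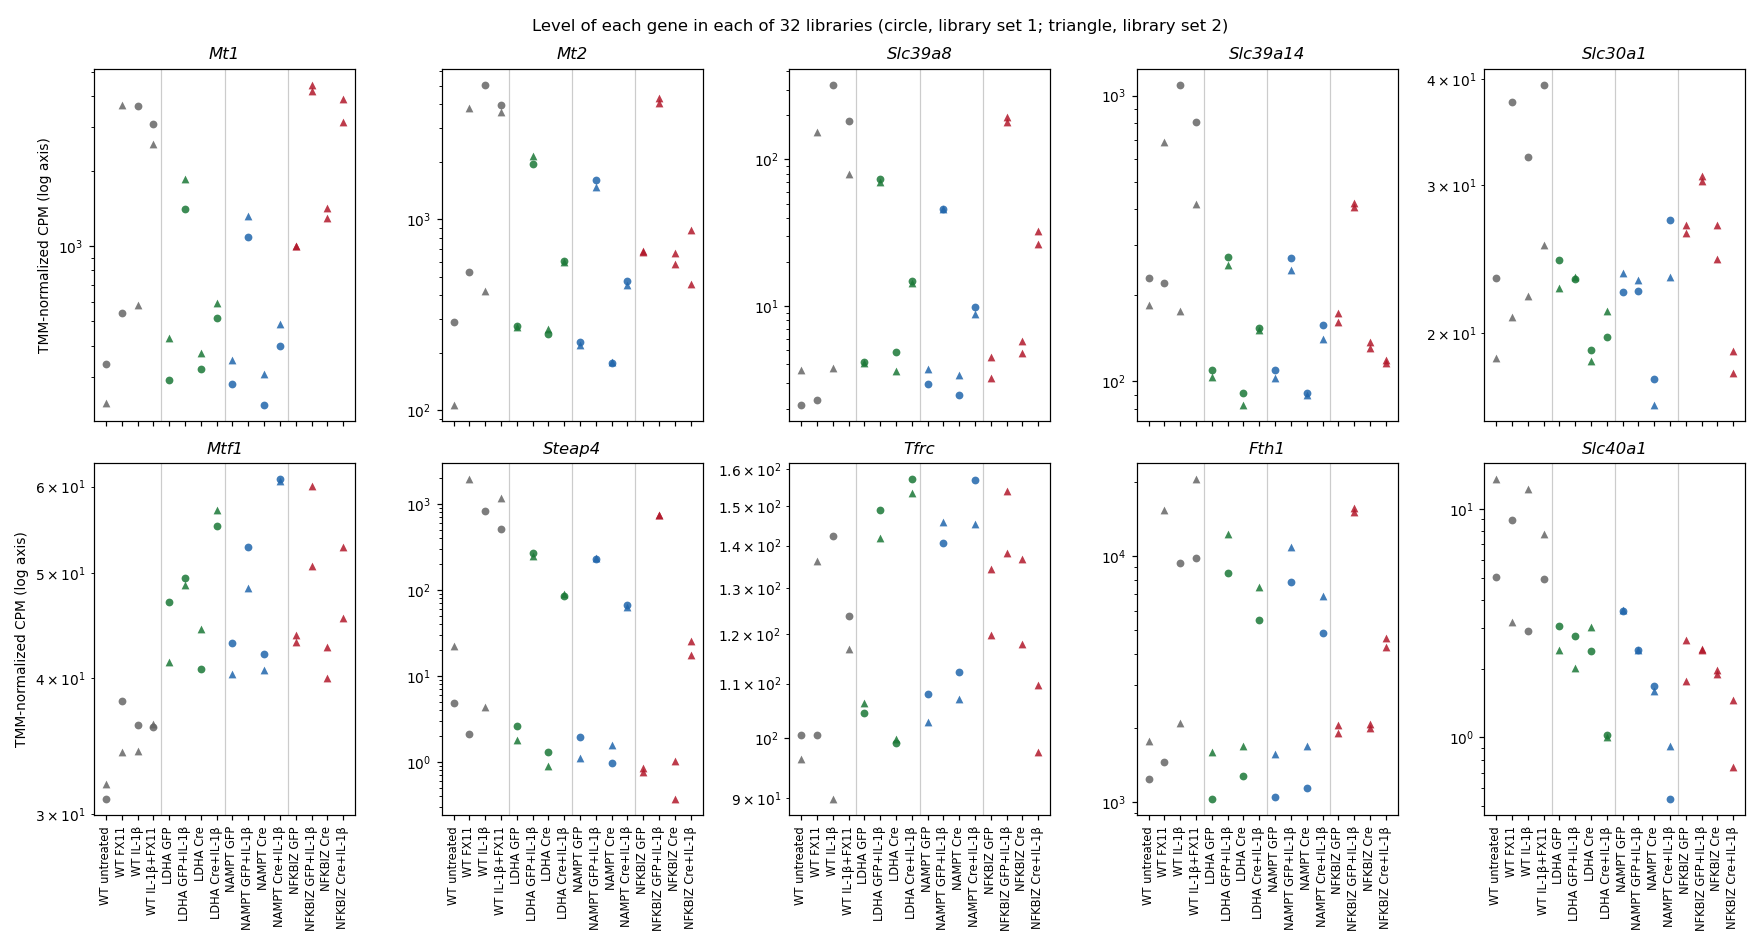
Normalized CPM (log axis, with its own range in each panel) of the 10 genes in all 32 libraries, grouped by genotype and treatment, with circles for library set 1 and triangles for set 2. Steap4, Fth1, Slc39a8, Mt1 and Mt2 rise with IL-1β in every floxed line with GFP virus, and in wild type the set 2 triangle labelled FX11 stands high and the one labelled IL-1β low, with Mt1 at 3662 and 582 CPM.

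Levels of different genes were compared per kilobase of exon (RPKM). Without IL-1β the medians of the 6 GFP libraries ran from Fth1 (1833), Mt1 (720) and Mt2 (494) through Tfrc (17.3), Slc39a14 (10.4), Mtf1 (4.84) and Slc30a1 (4.57) to Slc39a8 (0.512), Steap4 (0.459) and Slc40a1 (0.319). In that order the ranges of Fth1 and Mt1, of Mt1 and Mt2, of Mtf1 and Slc30a1, and of Slc39a8, Steap4 and Slc40a1 overlapped between neighbours. With IL-1β the order became Fth1 (13384), Mt2 (3678), Mt1 (3022), Steap4 (81.8), Slc39a14 (25.7), Tfrc (23.3), Slc39a8 (9.35), Mtf1 (5.63), Slc30a1 (4.43) and Slc40a1 (0.267). Steap4 moved from rank 9 to rank 4, and only Fth1 against Mt2, Mt1 against Steap4, Steap4 against Slc39a14 and Slc30a1 against Slc40a1 were neighbours whose ranges stood apart. Fth1 had the highest RPKM of the 10 genes in 28 of 32 libraries, and in the other 4, all of NFKBIZ flox with Cre virus, Mt1 did.

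Within single lines, 2 libraries against 2, IL-1β with GFP virus raised 7 of the 10 genes in LDHA flox, where 27.9% of all genes tested were called, 8 in NAMPT flox, where 35% were, and 7 in NFKBIZ flox, where 26.8% were. Mt1, Mt2, Slc39a8, Slc39a14, Steap4 and Fth1 were called in each line, Tfrc in LDHA flox and NAMPT flox, and Mtf1 in NAMPT flox and NFKBIZ flox. The Mtf1 calls did not survive leaving out NAMPT flox GFP+IL-1b replicate 1 (log2 fold change 0.25, edgeR adjusted p = 0.0674) or any of 3 NFKBIZ flox libraries, both with GFP virus alone and GFP+IL-1b replicate 1 (adjusted p of 0.135 to 0.295).

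The size of the response was tested between lines over all 24 floxed libraries. LDHA flox and NAMPT flox differed in none of the 10 genes by edgeR, and in none by DESeq2, limma or an unadjusted p, where 0.012% of all genes were called. NFKBIZ flox had larger responses of Slc39a8 and Steap4 than LDHA flox, where 2.42% of genes were called, and than NAMPT flox, where 4.01% were. Slc39a8 stood at 4.50 and 3.25 CPM without and 181 and 196 CPM with IL-1β in NFKBIZ flox, at 4.18 and 4.12 against 73.5 and 69.8 CPM in LDHA flox, and at 2.94 and 3.73 against 45.8 and 45.9 CPM in NAMPT flox. Its levels without IL-1β overlapped between lines and those with IL-1β were highest in NFKBIZ flox, so the log2 response was larger by 1.51 (SE 0.22, edgeR adjusted p = 1.99e-04) than in LDHA flox and by 1.76 (SE 0.23, adjusted p = 4.56e-05) than in NAMPT flox. Steap4 stood at 0.757 and 0.844 CPM without IL-1β in NFKBIZ flox, 17 and 20 counts, at 2.58 and 1.78 CPM in LDHA flox and at 1.93 and 1.10 CPM in NAMPT flox. With IL-1β it stood at 746 and 743, 266 and 248, and 232 and 236 CPM in the same order. NFKBIZ flox was thus lowest without and highest with IL-1β, and its log2 response was larger by 3.01 (SE 0.36, adjusted p = 2.67e-05) and 2.67 (SE 0.39, adjusted p = 1.93e-04). The last call was lost without NAMPT flox GFP replicate 1 (2.13, adjusted p = 0.06). The line is confounded with its fibroblast markers and, in part, with library set, which the fit held as a covariate.

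How many of these genes were called with Cre virus and no IL-1β depended on whether library set was in the fit. With Cre against GFP virus, edgeR called 2 of the 10 genes in LDHA flox, where 5.52% of all genes were called, 3 in NAMPT flox, where 14.4% were, and 0 in NFKBIZ flox, where 0.26% were. In NFKBIZ flox 3 of the 10 had an unadjusted p of 0.05 or less and DESeq2 and limma called 0. In LDHA flox Slc39a14 stood at 90.9 and 82.9 CPM with Cre against 110 and 104 CPM with GFP virus (log2 fold change -0.32, SE 0.07, adjusted p = 0.0365) and Steap4 at 1.31 and 0.905 CPM against 2.58 and 1.78 CPM (-0.98, SE 0.22, adjusted p = 0.0293). The first call was lost when any 1 of the 8 libraries was left out (adjusted p of 0.0544 to 0.281) and the second for 5 of them (0.0585 to 0.243), namely both with Cre virus alone, both with Cre virus and IL-1β, and GFP replicate 1. In NAMPT flox Mt2 stood at 177 and 179 CPM with Cre against 229 and 220 CPM with GFP virus (-0.35, SE 0.06, adjusted p = 0.00345), and Slc30a1 (-0.43, adjusted p = 0.0172) and Slc40a1 (-1.14, adjusted p = 0.0257) were also called lower. The calls of Slc30a1 and Slc40a1 were lost without any 1 of the 4 NAMPT flox libraries that had no IL-1β (adjusted p of at least 0.0514 and 0.0882).

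The libraries of a set deviated together in LDHA flox and NAMPT flox, and with the set as a replicate block 10 calls were made in place of 5, 4 in LDHA flox, where 12.6% of all genes were then called, and 6 in NAMPT flox, where 26.7% were. The share of all genes called rose with the block as well. All 5 calls made without the block were kept by edgeR. In LDHA flox these were Slc39a14 (-0.32, adjusted p = 9.74e-04) and Steap4 (-0.98, adjusted p = 0.00421). In NAMPT flox they were Mt2 (-0.35, adjusted p = 4.81e-09), Slc30a1 (-0.43, adjusted p = 8.02e-04) and Slc40a1 (-1.14, adjusted p = 0.00407). The block added Slc30a1 (-0.34, edgeR adjusted p = 0.0183) and Fth1 (0.18, adjusted p = 0.048) in LDHA flox. In NAMPT flox it added Mt1 (-0.24, adjusted p = 4e-06), Slc39a14 (-0.24, adjusted p = 1.85e-04) and Fth1 (0.10, adjusted p = 0.00297).

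Under IL-1β most of these genes were lower with Cre than with GFP virus. Cre against GFP virus changed 6 of the 10 in LDHA flox, all lower, where 34% of all genes were called. It changed 8 in NAMPT flox, 7 lower and 1 higher, where 48.4% were called, and 7 in NFKBIZ flox, all lower, where 17.4% were. The median log2 fold change over the 10 genes was -1.001, -1.10 and -1.48 in the same order, and over all genes tested between -0.03 and -0.01. How the 10 genes were chosen makes this contrast descriptive too. With the replicate block 8 of the 10 were called in LDHA flox (44.8% of all genes) and 8 in NAMPT flox (58.3%).

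Marker sums moved with Cre under IL-1β as well. The chondrocyte markers summed to 24236 and 24713 CPM with GFP virus and 13054 and 13853 CPM with Cre in LDHA flox, to 23975 and 24434 against 14014 and 14349 CPM in NAMPT flox, and to 26418 and 28617 against 32269 and 34482 CPM in NFKBIZ flox, where they were higher with Cre. The fibroblast markers went from 2962 and 3109 to 1942 and 1972 CPM in LDHA flox, from 2529 and 2604 to 1660 and 1712 CPM in NAMPT flox, and from 483 and 514 to 495 and 564 CPM in NFKBIZ flox. The macrophage markers went from 37.1 and 38.4 to 26.7 and 28.6 CPM, from 30.9 and 36.4 to 21.6 and 21.98 CPM, and from 62.8 and 64.6 to 56.3 and 58.7 CPM. Their part in the changes of the members was not tested.

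**Figure D2:**
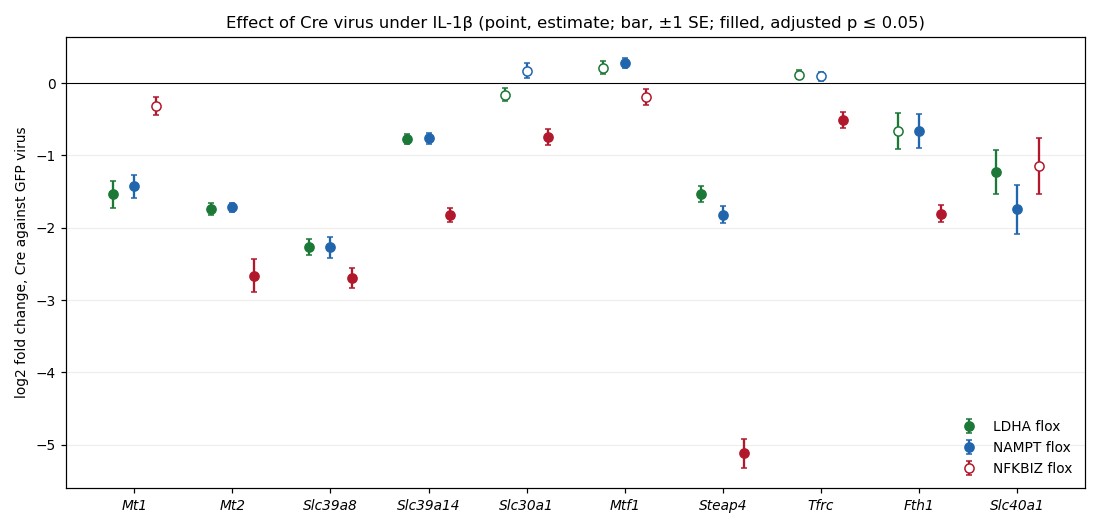
Log2 fold change of Cre against GFP virus under IL-1β for each gene in LDHA flox (green), NAMPT flox (blue) and NFKBIZ flox (red), 2 libraries against 2, with bars of 1 SE and filled points for an adjusted p of 0.05 or less. LDHA flox and NAMPT flox points lie side by side for most genes, and in NFKBIZ flox Mt1 lies at -0.31 and Steap4 at -5.12.

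The metallothionein genes fell side by side with Cre in LDHA flox and NAMPT flox. With IL-1β, Mt1 stood at 1405 and 1859 CPM with GFP virus and at 515 and 594 CPM with Cre in LDHA flox, and at 1092 and 1318 CPM against 397 and 490 CPM in NAMPT flox. Mt2 stood at 1952 and 2138 CPM against 603 and 602 CPM in LDHA flox, and at 1617 and 1476 CPM against 474 and 453 CPM in NAMPT flox. No Cre library reached a GFP library for either gene in either line. The log2 fold changes were -1.54 (SE 0.19, edgeR adjusted p = 1.90e-04) and -1.43 (SE 0.16, adjusted p = 2.5e-05) for Mt1 and -1.74 (SE 0.08, adjusted p = 2.89e-07) and -1.72 (SE 0.06, adjusted p = 8.2e-09) for Mt2.

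With Cre in NFKBIZ flox the pair parted. Mt1 stood at 4440 and 4197 CPM with GFP virus and at 3896 and 3131 CPM with Cre, a log2 fold change of -0.31 (SE 0.12) that was not called (edgeR adjusted p = 0.107) although both Cre libraries lay below both GFP libraries. Without Cre+IL-1b replicate 1 it was called (-0.48, adjusted p = 0.00636). Mt2 stood at 4330 and 4055 CPM with GFP virus and at 883 and 458 CPM with Cre, a log2 fold change of -2.66 (SE 0.23, adjusted p = 6.5e-06). There were 4.41 and 6.84 Mt1 reads for each Mt2 read in the 2 NFKBIZ flox libraries with Cre and IL-1β, and between 0.675 and 2.43 in the other 30 libraries.

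**Figure D3:**
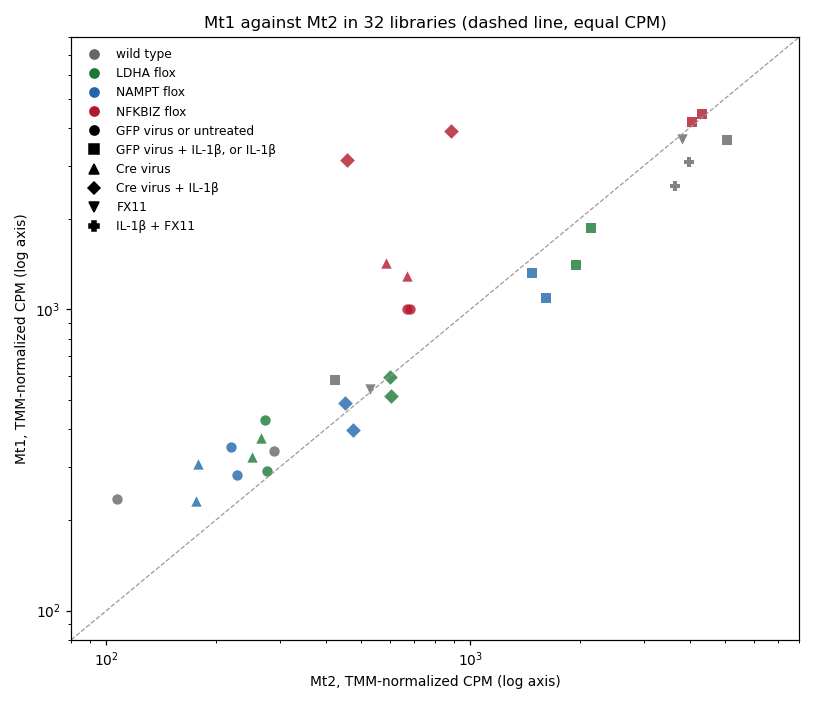
Mt1 against Mt2 in the 32 libraries (normalized CPM, both axes log), coloured by genotype and shaped by treatment, with a dashed line at equal CPM. Most libraries lie near the line, and the 2 red diamonds (NFKBIZ flox, Cre virus with IL-1β) lie far above it at 3896 and 3131 CPM of Mt1 against 883 and 458 CPM of Mt2.

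The difference in the Cre effect was tested between lines. Against LDHA flox, the NFKBIZ flox effect was higher by 1.24 for Mt1 (SE 0.13, edgeR adjusted p = 7.8e-08) and lower by a log2 difference of -0.89 for Mt2 (SE 0.22, adjusted p = 0.00422). Against NAMPT flox the differences were 1.16 (SE 0.13, adjusted p = 1.65e-07) and -0.90 (SE 0.22, adjusted p = 0.00274). For this contrast 8 of the 10 genes were called in each pairing with NFKBIZ flox, where 27% and 36.3% of all genes were. Between LDHA flox and NAMPT flox, where 0.538% of genes were called, edgeR, DESeq2 and limma called 0 of the 10, and 1 had an unadjusted p of 0.05 or less. The target, the line and its cells, and in part the library set, cannot be told apart in these differences.

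The zinc importers fell in every line. Slc39a8 under IL-1β stood at 73.5 and 69.8 CPM with GFP virus and 14.9 and 14.5 CPM with Cre in LDHA flox, at 45.8 and 45.9 against 9.88 and 8.89 CPM in NAMPT flox, and at 181 and 196 against 26.5 and 32.5 CPM in NFKBIZ flox. Its log2 fold changes of -2.27, -2.27 and -2.69 (SE 0.11, 0.15 and 0.14, largest edgeR adjusted p = 4.22e-07) were not called as different for NFKBIZ flox against either other line (adjusted p = 0.0976 and 0.0994), but were without NFKBIZ flox Cre+IL-1b replicate 2 (log2 differences -0.55 and -0.54, adjusted p = 0.018 and 0.0178). Slc39a14 stood at 273 and 256 against 153 and 151 CPM in LDHA flox, at 270 and 245 against 158 and 141 CPM in NAMPT flox, and at 420 and 406 against 116 and 119 CPM in NFKBIZ flox. Its fold changes were -0.77, -0.77 and -1.83, and the fall in NFKBIZ flox was larger by a log2 difference of -1.02 (SE 0.09) against either other line (adjusted p = 7.96e-09 and 5.33e-09).

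Slc30a1 and Mtf1 behaved differently by line. Slc30a1 stood at 30.8 and 30.3 CPM with GFP virus and at 18.0 and 19.0 CPM with Cre in NFKBIZ flox under IL-1β (-0.74, SE 0.11, edgeR adjusted p = 4.73e-04), and was not called in LDHA flox (-0.16, adjusted p = 0.204) or NAMPT flox (0.17, adjusted p = 0.198). The differences from those lines were -0.54 (SE 0.13, adjusted p = 0.00346) and -0.86 (SE 0.13, adjusted p = 1.8e-05). Mtf1 rose by 0.28 in NAMPT flox (SE 0.07, adjusted p = 0.00875), where it stood at 52.8 and 48.5 CPM with GFP virus and at 60.9 and 60.7 CPM with Cre. That call was lost without NAMPT flox Cre+IL-1b replicate 1 or GFP+IL-1b replicate 2 (adjusted p = 0.0664 and 0.0735). Its change was 0.22 in LDHA flox, called only with the replicate block (adjusted p = 0.036), and -0.19 in NFKBIZ flox (adjusted p = 0.289). The line differences for Mtf1, -0.37 and -0.42 (adjusted p = 0.0346 and 0.012), were lost without NFKBIZ flox GFP+IL-1b replicate 1 or Cre+IL-1b replicate 1, the first also without LDHA flox GFP+IL-1b replicate 1 or 2 or Cre+IL-1b replicate 2 and the second without NAMPT flox GFP+IL-1b replicate 2 (adjusted p of up to 0.212 and 0.0984).

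The largest fall was that of Steap4 in NFKBIZ flox. Under IL-1β it stood at 266 and 248 CPM with GFP virus and 85.2 and 89.5 CPM with Cre in LDHA flox, at 232 and 236 against 66.9 and 63.8 CPM in NAMPT flox, and at 746 and 743 against 25.7 and 17.6 CPM in NFKBIZ flox. NFKBIZ flox thus had the highest level with GFP virus and the lowest with Cre. The log2 fold changes were -1.53 (SE 0.11, edgeR adjusted p = 5.26e-06), -1.82 (SE 0.12, adjusted p = 4.82e-07) and -5.12 (SE 0.20, adjusted p = 3.27e-09), and the NFKBIZ flox effect differed by -3.55 (SE 0.19) and -3.26 (SE 0.19) from the other lines (adjusted p = 2.12e-12 and 5.43e-12).

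Fth1 differed between library sets as well as with Cre. Under IL-1β it stood at 8525 and 12272 CPM with GFP virus and at 5490 and 7496 CPM with Cre in LDHA flox, and at 7820 and 10909 against 4858 and 6867 CPM in NAMPT flox, the second value being set 2. Within each set the Cre library was lower, and the log2 fold change was -0.66 in either line, with adjusted p = 0.064 in LDHA flox and 0.0406 in NAMPT flox by edgeR. With the set as a replicate block the LDHA flox change was -0.65 (adjusted p = 5.13e-08), and without the block it was called when GFP+IL-1b replicate 1 or either library with GFP virus alone was left out (adjusted p of 0.0298 to 0.0372). The unblocked NAMPT flox call was lost by DESeq2 and without Cre+IL-1b replicate 1 or GFP+IL-1b replicate 2 (log2 fold changes -0.46 and -0.39). With the replicate block the NAMPT flox change was -0.66 (SE 0.03, edgeR adjusted p = 1.39e-21). A value that small rests on edgeR's sharing of spread between genes. In NFKBIZ flox Fth1 stood at 15597 and 15137 CPM with GFP virus and at 4645 and 4259 CPM with Cre, a fall by 1.80 on the log2 scale (SE 0.12, adjusted p = 4.71e-07) that was larger than in the other lines by -1.12 and -1.10 (SE 0.10, adjusted p = 7.91e-09 and 6.76e-09).

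Tfrc, the receptor for transferrin-bound iron, fell with Cre in NFKBIZ flox from 154 and 138 CPM to 110 and 97.6 CPM (-0.51, SE 0.11, edgeR adjusted p = 0.00696), a call lost without NFKBIZ flox GFP+IL-1b replicate 1 (-0.43, adjusted p = 0.097). It was not called in LDHA flox (0.12, adjusted p = 0.185) or NAMPT flox (0.10, adjusted p = 0.256), and the line differences were -0.59 and -0.56 (SE 0.11, adjusted p = 3.32e-04 and 4.27e-04). Slc40a1 fell from 2.78 and 2.02 CPM to 1.03 and 1.00 CPM in LDHA flox (-1.23, SE 0.31, adjusted p = 0.0122) and from 2.40 and 2.41 CPM to 0.535 and 0.918 CPM in NAMPT flox (-1.75, SE 0.33, adjusted p = 0.00135). In NFKBIZ flox it stood at 2.41 and 2.43 CPM against 1.46 and 0.739 CPM (-1.15, SE 0.39, adjusted p = 0.0616, and 0.0192 without Cre+IL-1b replicate 1). The LDHA flox call was lost without either Cre+IL-1b library or GFP+IL-1b replicate 1 (adjusted p of 0.0557 to 0.0918).

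The change of the IL-1β response itself was tested as an interaction. edgeR called 4 of the 10 genes in LDHA flox (11.5% of all genes called), 6 in NAMPT flox (22% called) and 7 in NFKBIZ flox (5.19% called). Mt1, Mt2, Slc39a8 and Slc39a14 had a smaller response with Cre in all 3 lines, by log2 differences of -1.48, -1.64, -2.29 and -0.46 in LDHA flox, -1.19, -1.37, -2.09 and -0.53 in NAMPT flox and -0.74, -2.54, -3.13 and -1.50 in NFKBIZ flox. Steap4 was also called in NAMPT flox (-1.39, SE 0.29, adjusted p = 0.00584) and NFKBIZ flox (-4.89, SE 0.56, adjusted p = 2.59e-04), and Fth1 in NFKBIZ flox (-1.83, SE 0.16, adjusted p = 3.28e-05). With the replicate block, where 5 of the 10 were called in LDHA flox (21.2% of all genes) and 8 in NAMPT flox (35%), Fth1 was called in LDHA flox (-0.83, adjusted p = 8.74e-07) and NAMPT flox (-0.76, adjusted p = 4.36e-18), and Mtf1 in NAMPT flox (0.30, adjusted p = 0.0105). Such small values with 2 libraries per group rest on edgeR's sharing of spread between genes and not on the spread of Fth1 alone. Slc30a1 changed in opposite directions, 0.60 in NAMPT flox (adjusted p = 0.0134) and -0.68 in NFKBIZ flox (adjusted p = 0.022), and these calls were lost without NAMPT flox GFP+IL-1b replicate 1, Cre+IL-1b replicate 1 or GFP replicate 2 (adjusted p of up to 0.0782) and without any of the 4 NFKBIZ flox libraries with GFP virus or Cre replicate 2 (up to 0.111). Single libraries also decided the Mt1 call in NFKBIZ flox, lost without 5 of 8 (the 4 with GFP virus and Cre replicate 1, adjusted p of 0.0783 to 0.176), and the Slc39a14 call in LDHA flox, lost without Cre replicate 1 (adjusted p = 0.092). Fth1 in NAMPT flox was called without GFP replicate 2 (-1.15, adjusted p = 0.0388) and Tfrc in NFKBIZ flox without Cre+IL-1b replicate 1 (-0.59, adjusted p = 0.0267).

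**Figure D4:**
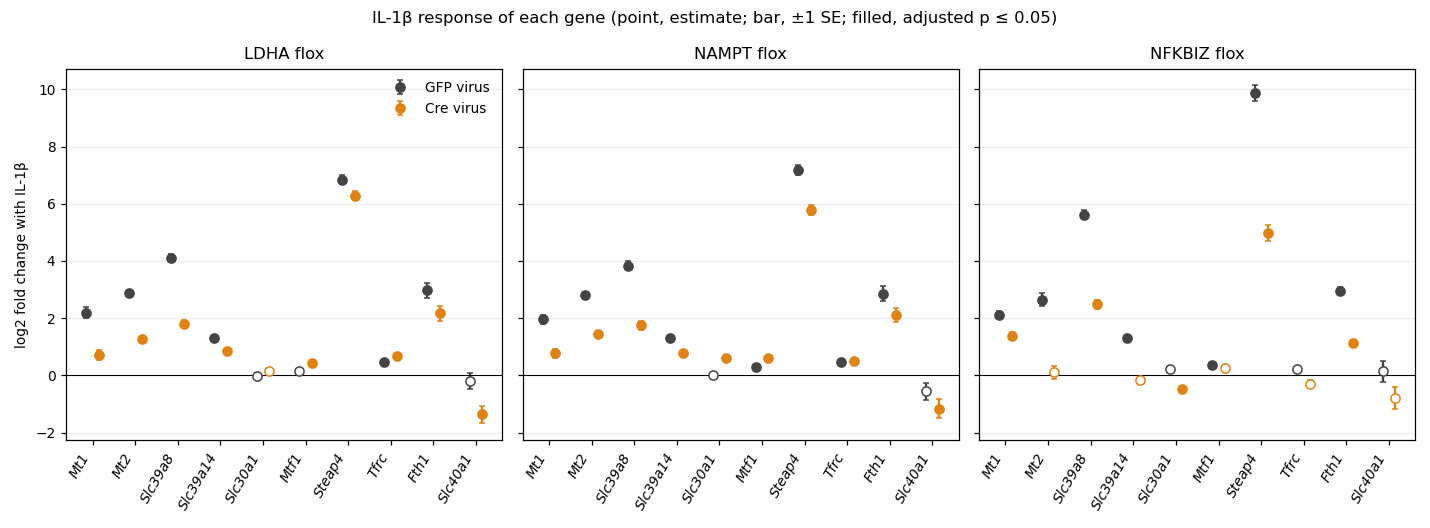
Log2 fold change with IL-1β for each gene with GFP virus (grey) and Cre virus (orange) in the 3 floxed lines, 2 libraries against 2, with bars of 1 SE and filled points for an adjusted p of 0.05 or less. Orange points lie below grey ones for the 2 metallothionein genes, the 2 importers, Steap4 and Fth1 in each line, and in NFKBIZ flox those of Mt2 (0.11) and Slc39a14 (-0.18) lie near 0.

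With Cre virus IL-1β still changed 9 of the 10 genes in LDHA flox, where 35.9% of all genes were called, 10 in NAMPT flox, where 43.9% were, and 5 in NFKBIZ flox, where 22.1% were. Mt1 kept a log2 response of 1.38 in NFKBIZ flox (SE 0.13, edgeR adjusted p = 1.27e-05), from 1422 and 1295 CPM to 3896 and 3131 CPM, while Mt2 stood at 586 and 668 CPM without and 883 and 458 CPM with IL-1β (0.11, SE 0.22, adjusted p = 0.763). The 2 Mt2 libraries with IL-1β lay on either side of those without, and leaving out Cre+IL-1b replicate 1 turned its sign (-0.45, adjusted p = 0.00994) while leaving out replicate 2 gave 0.51 (adjusted p = 0.00764). Without Cre+IL-1b replicate 1 the uncalled Mtf1, Tfrc and Slc40a1 changes were also called (0.36, -0.37 and -1.37, adjusted p = 0.0332, 0.0332 and 0.0477). Slc39a14 stood at 131 and 137 CPM without and 116 and 119 CPM under IL-1β (-0.18, SE 0.09, adjusted p = 0.191). Steap4 (4.97), Slc39a8 (2.49) and Fth1 (1.13) rose in NFKBIZ flox with Cre, and Slc30a1 fell by 0.46 (adjusted p = 0.0103, and 0.111 without Cre replicate 2). In LDHA flox and NAMPT flox Slc40a1 fell with IL-1β after Cre (-1.37 and -1.17, adjusted p = 0.00653 and 0.015), the second call being lost without replicate 1 of either NAMPT flox Cre condition (adjusted p of 0.0632 and 0.12). Mt1 rose by 0.71 in LDHA flox (adjusted p = 0.0148), a call lost without Cre replicate 1 or Cre+IL-1b replicate 2 (log2 fold changes 0.60 and 0.58). It went from 323 to 515 CPM in set 1 and from 374 to 594 CPM in set 2. With the set as a replicate block, edgeR kept the Mt1 call in LDHA flox (0.71, SE 0.07, adjusted p = 4.91e-07). The Slc40a1 call in NAMPT flox was kept as well (-1.18, adjusted p = 0.00565).

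The wild-type libraries address IL-1β and FX11 without virus. Over the 8 libraries as labelled, edgeR called 0% of 15461 genes and 0 of the 10 members in each of 4 contrasts. Unadjusted p-values of 0.05 or less were found for 2 of the 10 with IL-1β, 2 with FX11 and 3 with both against untreated and for 0 with both against IL-1β, and for 153, 68, 860 and 102 of all genes. DESeq2 called 6, 2, 153 and 1 of all genes, and of the 10 only Mt1 and Mt2 with both agents against untreated, and limma called none. Without the 2 doubted libraries edgeR called 1 gene in all with IL-1β, 0 with FX11 and 1 with both against untreated, and 0 with both against IL-1β, none of them a member, and the smallest adjusted p of a member was 0.0727.

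Set 1, with 1 library per condition, gives values and no test. In the order untreated, FX11, IL-1β and both, Mt1 stood at 338, 543, 3660 and 3088 CPM and Mt2 at 289, 530, 5082 and 3987 CPM. Slc39a8 stood at 2.13, 2.28, 324 and 182 CPM, Slc39a14 at 230, 221, 1093 and 811 CPM, and Steap4 at 4.90, 2.11, 825 and 515 CPM. Fth1 stood at 1239, 1456, 9365 and 9794 CPM. In this set the 5 other genes were lower with both agents than with IL-1β alone, and Fth1 was slightly higher. In set 2, in the same order of labels, Mt1 stood at 235, 3662, 582 and 2557 CPM, Mt2 at 107, 3824, 424 and 3656 CPM, Slc39a8 at 3.67, 154, 3.81 and 80.2 CPM, and Steap4 at 22.2, 1941, 4.33 and 1163 CPM. Slc39a14 stood at 186, 687, 176 and 418 CPM and Fth1 at 1780, 15383, 2095 and 20485 CPM. Here the library labelled FX11 is high and the library labelled IL-1b low for each of these genes. The remaining members, Slc30a1, Mtf1, Tfrc and Slc40a1, ranged over the 8 libraries from 18.7 to 39.4, 31.0 to 38.1, 89.8 to 142 and 2.93 to 13.5 CPM.

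GFP virus and floxed line together were set against uninfected wild type without IL-1β, 6 libraries against 2, with set as a covariate, and cannot be told apart from each other. Of the 10 genes 3 were called, where 6.45% of all genes were. Steap4 stood at 4.90 and 22.2 CPM in wild type and at most at 2.58 CPM with GFP virus (log2 difference -3.19, SE 0.57, edgeR adjusted p = 0.0183), Slc40a1 at 5.02 and 13.5 CPM against at most 3.63 CPM (-1.68, SE 0.37, adjusted p = 0.0341), and Mtf1 at 31.0 and 32.01 CPM against at least 40.4 CPM (0.46, SE 0.09, adjusted p = 0.0275). Limma called none of the 10, and each call was lost without some single libraries, 2 for Steap4 (NAMPT flox GFP replicate 1 and the set 2 wild-type library), 7 of 8 for Slc40a1 and 6 of 8 for Mtf1, with adjusted p up to 0.366, 0.566 and 0.114. Macrophage markers summed to 85.5 and 210 CPM in the 2 wild-type libraries and to at most 25.0 CPM in the 6 others. Erythroid markers summed to 40.2 and 3.75 CPM against at most 2.46 CPM, and fibroblast markers to 5087 and 6640 CPM against 534 to 4055 CPM. The part of these markers in this comparison was not tested.

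Other genes of the same pathways, listed by function, were counted in the comparison of 12 GFP libraries, where of 14283 genes 3993 rose and 4037 fell, so that shares near 56.2% called are those of genes at large. Of the other ZIP transporters 4 of 10 tested rose and 4 fell, led by Slc39a4 (3.94) and Slc39a10 (1.81) and by Slc39a11 (-0.98) and Slc39a7 (-0.35), and of the other ZnT exporters Slc30a4 rose (0.29) and Slc30a6 fell (-0.23) of 6. Slc39a4 stood at 0 to 0.380 CPM without and 2.22 to 4.85 CPM with IL-1β, so the size of its fold rests on very few counts. Mt3, a metallothionein best known from brain, rose (1.64), from between 0.086 and 1.01 CPM to between 0.721 and 1.73 CPM. Its arms overlapped on counts of 3 to 41 per library, and in NFKBIZ flox alone it was not called (0.89). Among 15 genes of iron uptake, reduction and carriers 8 rose and 5 fell, with Lcn2, the siderophore-binding lipocalin, at 7.21 and Slc11a2, the divalent metal transporter DMT1, at 1.69, and with Cybrd1, a duodenal ferric reductase, at -2.28 and Meltf at -1.19. Of 10 genes for iron storage, export and sensing 4 rose, led by the ferroxidases Cp (1.54, SE 0.08) and Heph (0.95, SE 0.27), and 3 fell, among them Hfe (-0.23) and Ncoa4 (-0.20), the receptor for ferritin breakdown. Heph did not pass the filter on low counts in the fit of NFKBIZ flox alone.

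Of 16 haem genes 6 rose, led by biliverdin reductase Blvrb (1.70) and haem oxygenase Hmox1 (1.28), and 5 fell, among them Cpox (-0.62) and Flvcr2 (-0.53). Of 11 genes of mitochondrial iron and iron-sulphur clusters the importer Slc25a37 rose (1.32) and 3 fell, among them Hscb (-0.53) and Lyrm4 (-0.50), and of 9 copper genes 3 rose, led by Atp7b (2.28) and Cox17 (0.29), and 2 fell, Commd1 and Ccs (-0.34 each). The median log2 change of these lists lay between -0.07 and 0.36 except for Mt3, the one tested gene of its list, against -0.01 over all genes.

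With Cre under IL-1β the other ZIP genes moved in both directions, 2 of 10 higher and 3 lower in LDHA flox, 5 and 2 in NAMPT flox and 0 and 1 in NFKBIZ flox. The genes of iron uptake, reduction and carriers were 5 higher and 7 lower of 15 in LDHA flox, 6 and 6 in NAMPT flox and 3 and 5 in NFKBIZ flox. Slc39a4, which encodes the intestinal zinc importer ZIP4, stood under IL-1β at 3.61 and 2.78 CPM with GFP virus and at 53.3 and 53.2 CPM with Cre in LDHA flox, and at 4.85 and 3.15 against 77.0 and 80.5 CPM in NAMPT flox. In NFKBIZ flox it stood at 2.51 and 2.22 against 2.66 and 2.43 CPM. The log2 fold changes were 4.06 and 4.28, both called, and 0.09, not called. Mt3 also rose with Cre in LDHA flox (2.34) and NAMPT flox (2.45) and was not called in NFKBIZ flox (-0.57), whereas Slc39a10 fell in all 3 lines (-2.31, -2.48 and -1.08) and so did Hmox1 (-1.59, -1.88 and -1.23), Cp (-2.13, -2.23 and -1.63) and Lcn2 (-1.09, -0.92 and -4.78).

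The genes whose pattern was most like each member were found by Pearson correlation of mean log2 CPM over the 16 conditions among 14352 genes, which share libraries and depth. Steap4 ran closest with Hp (r = 0.990), Cxcl5 (0.978) and Cd47 (0.978), Fth1 with Chil1, Nos2 and Gm6977 (0.988 each), Slc39a8 with Prr16 (0.983), and Slc39a14 with Ppp2cb (0.966), Stat3 (0.951) and Bcl6 (0.951). Mt2 ran closest with Sod2 (0.9575), Spink5 (0.949) and Prr16 (0.940), and Mt1 with Bnip3l-ps (0.9425), Galk2 (0.921) and Shisa5 (0.918). For the others the closest gene was Stx3 for Mtf1 (0.966), Bicc1 for Slc40a1 (0.9615), Cmtr2 for Tfrc (0.909) and Vhl for Slc30a1 (0.852). Between members the coefficient was 0.879 for Mt1 with Mt2, 0.936 for Mt2 with Slc39a8, 0.945 for Steap4 with Fth1 and -0.859 for Mtf1 with Slc40a1, over 16 condition means. The wild-type means include the 2 libraries that run against their labels. Over the 12 floxed conditions alone, chosen after the wild-type values were seen, the closest gene was still Hp for Steap4 (0.992) and became Nos2 for Fth1 (0.990), Gpm6b for Slc39a8 (0.982), Hilpda for Slc39a14 (0.970), Egln1 for Mt2 (0.973), Grem1 for Mt1 (0.9755), Arid3a for Mtf1 (0.986), Penk for Slc40a1 (0.965), Zswim5 for Tfrc (0.955) and Gm5537 for Slc30a1 (0.911). Over these 12 the coefficient of Mtf1 with Slc40a1 was -0.627 and that of Mt1 with Mt2 0.842.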

How the data were processed

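The authors depleted ribosomal RNA, used STAR for alignment to mouse GRCm38 (Ensembl release 76), and featureCounts for the deposited per-gene counts, which are raw whole numbers from reads with 1 unambiguous placement. The deposited CPM equalled count over library total, and the deposited RPKM also divides by gene length, and neither entered a test. Whether counting used the strand is not stated. Groups came from the labels, and the members, gene lists and tests were chosen with earlier results of these data known.

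Coordinates are those of the deposited files, symbols came from a table of Ensembl IDs and gene types from GENCODE M21. Counts were tested with edgeR 4.0.16 in R 4.3.3 (TMM, quasi-likelihood, two-sided, Benjamini-Hochberg, called at 0.05 or less), keeping genes above 1 CPM in at least 1 library (5 in the comparison of 12 libraries) and leaving out 355 ribosomal RNA genes. Fold changes use edgeR's default prior count and log2 CPM a prior count of 2. Line comparisons used the 8 libraries of the line, and comparisons between lines all 24 with library set as covariate. SE is the log2 fold change divided by the root of its F statistic. Library totals had medians of 36042740 in set 1 and 22985557 in set 2, and Slc40a1, with the fewest counts of the members, is the least precise. Deviations from the condition mean correlated between conditions of LDHA flox (r from 0.373 to 0.596) and NAMPT flox (0.371 to 0.499), where the sets pair the libraries, and not throughout wild type (-0.181 to 0.73). Alternatives were DESeq2 1.42.0, voomWithQualityWeights of limma 3.58.1, which is the test the study's methods name, RLE, no filter, other sets of libraries, the replicate block and leaving out each library. The procedure was tested on simulated counts, for the comparison of 12 libraries and for NFKBIZ flox contrasts. These counts were drawn without a library set effect. The test therefore does not cover the LDHA flox and NAMPT flox fits, where the libraries of a set deviate together. The text names all 10 members, the 2 called genes with the largest and the 2 with the smallest change per list, the 3 genes most like a member, the deleted genes, Mmp3, Saa3 and marker sums. Values of Slc39a4, Mt3, Slc39a10, Hmox1, Cp and Lcn2 after Cre were singled out after they were seen. No protein sequence was used here.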

Additional observations from a re-analysis of the deposited data

Results flagged for a closer look

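Each value here is a difference between NFKBIZ flox and another line in the same contrast, tested as such over the 24 floxed libraries and called by edgeR. The log2 response to IL-1β with GFP virus was larger in NFKBIZ flox by 1.51 for Slc39a8 and 3.01 for Steap4 against LDHA flox, and by 1.76 and 2.67 against NAMPT flox. For the effect of Cre under IL-1β, NFKBIZ flox minus LDHA flox was 1.24 for Mt1, -0.89 for Mt2, -1.02 for Slc39a14, -0.54 for Slc30a1, -0.37 for Mtf1, -3.55 for Steap4, -0.59 for Tfrc and -1.12 for Fth1. NFKBIZ flox minus NAMPT flox was 1.16 for Mt1, -0.90 for Mt2, -1.02 for Slc39a14, -0.86 for Slc30a1, -0.42 for Mtf1, -3.26 for Steap4, -0.56 for Tfrc and -1.10 for Fth1. The comparisons share the NFKBIZ flox libraries, all of which lie in library set 2. Of 20 groups of 6 GFP libraries tested for a library far from the rest, 10 genes without and with IL-1β, 0 had one. The rule sets the highest or lowest library against the next, so 2 libraries of a line that stand apart together hide each other. A line that differs from the others could therefore not be found in this way.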

How the results depend on the processing

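Counts below are of calls over the 10 members and the contrasts of a comparison. With all 32 libraries in 1 model, whose spread includes the wild-type libraries, calls of IL-1β with GFP virus went from 22 to 13, of IL-1β with Cre from 24 to 8, of Cre without IL-1β from 5 to 0, of Cre with IL-1β from 21 to 1, of the change of response from 17 to 0, and of wild type from 0 to 5. Calls of Cre without IL-1β were 8 with no filter on low counts. DESeq2 made 2 calls in wild type, and limma made 0 of the 3 for virus against uninfected cells. With library set as a replicate block, where the sets pair the LDHA flox and NAMPT flox libraries, there were 10 calls in place of 5 for Cre without IL-1β, 23 in place of 21 for Cre with IL-1β and 20 in place of 17 for the change of response, and no other call changed. Every call made within LDHA flox or NAMPT flox without the block was kept with it, also those lost when 1 library was left out. NFKBIZ flox libraries lie in 1 set and could not be paired. Leaving out 1 library gave 8 to 8 calls for IL-1β in the 12 GFP libraries, 21 to 22 with GFP and 23 to 28 with Cre by line, 3 to 6 for Cre without and 19 to 23 for Cre with IL-1β, 15 to 18 for the change of response, 0 to 0 in wild type, 0 to 2 for virus, and 3 to 4 and 14 to 18 for the differences between lines. Of the single-gene values, 1 reversed, Mt2 with IL-1β after Cre in NFKBIZ flox (-0.45 to 0.51 over these fits). With 1 library left in a group, that library is assumed to vary like the others. The cause was not tested for any of these.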
